A study of Mus musculus with 6 samples.

Results

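The genes described here mark T cells and their cytotoxic output in the inflamed mouse colon. They are 9 genes of 27202 in the deposited table and were chosen by name: *Cd3e*, *Cd4*, *Cd8a*, *Cd8b1*, *Foxp3*, *Tbx21*, *Gzma*, *Gzmb* and *Ifng*. The 3 mice of one group were *Nedd4l* fl/fl Villin Cre and the 3 of the other were their *Nedd4l* fl/fl littermates, and RNA of colonic tissue was sequenced as 1 library per mouse. *Nedd4l* encodes an E3 ubiquitin ligase. The Villin promoter drives Cre in intestinal epithelial cells (IECs), so that the deletion is aimed at IECs and not at T cells, and the littermates carry the same floxed alleles without Cre. All 6 mice were 8 to 10 weeks old, were on the C57BL/6J background and were given 2% dextran sulfate sodium (DSS), a polymer toxic to the lining of the colon, with collection on day 7. No mice without DSS were analysed here, so every comparison is of genotype under colitis.

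T cells recognise antigen through the T cell receptor (TCR), whose signal is carried by the CD3 chains, and helper and killer lineages are told apart by the coreceptors CD4 and CD8. Helper cells take on programs set by lineage transcription factors, such as T-bet for type 1 cells and FOXP3 for regulatory cells. Killer cells and NK cells store granzymes in granules and, like type 1 helper cells, secrete interferon gamma, the cytokine that induces antigen presentation and guanylate-binding proteins in surrounding cells. In the gut many T cells sit within the epithelium, and part of these carry CD8 as a homodimer of the alpha chain rather than as a heterodimer of alpha and beta.

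Of the 9 genes, 8 passed the filter on low values (a mean of at least 10 normalized counts over the 6 libraries), and *Ifng* did not. None of the 8 differed between the genotypes past the threshold, an adjusted p of 0.05 from limma with Benjamini-Hochberg adjustment over 16246 genes. Over all genes the share called was 0%, and the smallest adjusted p was 0.111. At an unadjusted limma p under 0.05 the count of members was again 0 of 8, where *Nedd4l* fl/fl Villin Cre mice had 6.91% of all tested genes higher and 7.08% lower. The quasi-likelihood test of edgeR on recovered reads called 0 members and 0 genes, and none of the 8 had an unadjusted p under 0.05 there. DESeq2 called 0 members, also with 0 at an unadjusted p under 0.05, but called 253 genes higher and 171 lower. The median log2 fold change of the 8 members was −0.14 (5 lower and 3 higher), and that of all tested genes was 0.0013.

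Normalized counts (reads divided by 1 size factor per library) are given in the order of replicates 1, 2 and 3, with *Nedd4l* fl/fl Villin Cre mice first. A fold change is the difference of mean log2(normalized count + 1), *Nedd4l* fl/fl Villin Cre minus *Nedd4l* fl/fl, with its standard error (SE). The libraries held between 14914367 and 17547270 reads on genes. *Nedd4l* itself stood at 476, 942 and 566 against 1241, 1271 and 1266 normalized counts. Replicate 2 of the *Nedd4l* fl/fl Villin Cre mice thus kept the most *Nedd4l*, and over all genes its mean correlation was higher with the other genotype (0.977) than with its own (0.966). In bulk tissue, fewer cells of a type and less RNA per cell cannot be told apart.

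**Figure D1:**
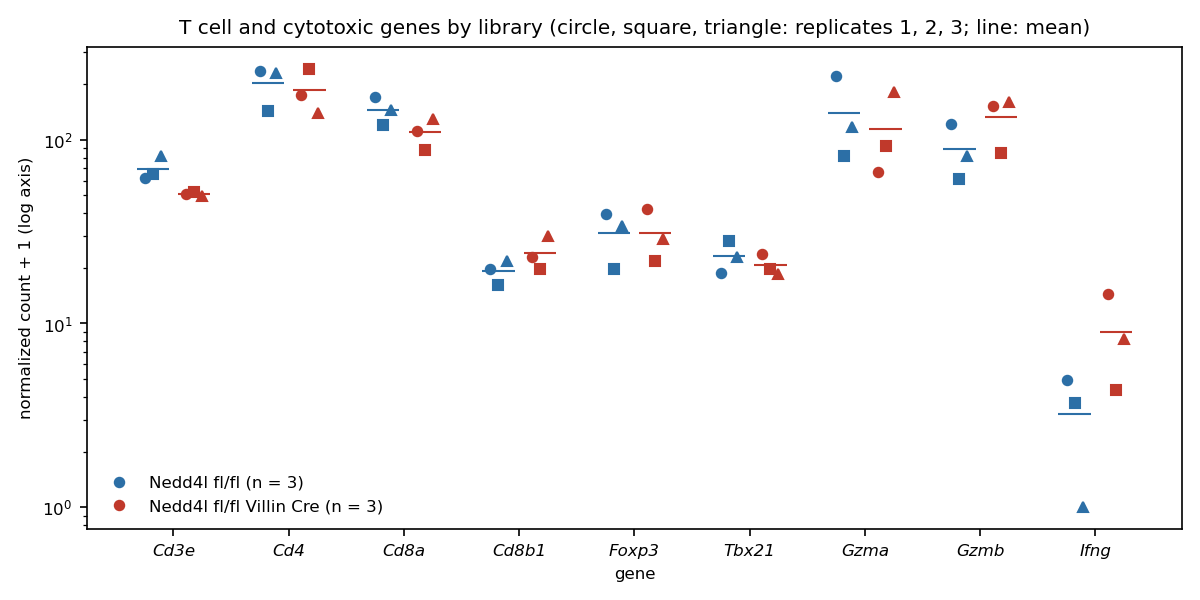
Normalized count plus 1 (log axis) of each of the 9 genes in each library, with *Nedd4l* fl/fl mice in blue, *Nedd4l* fl/fl Villin Cre mice in red, 1 symbol per replicate and a line at the mean of 3. For *Cd3e* the red points, at 48.5 to 50.9 normalized counts, lie below the blue points, at 61.2 to 80.9, while the points of the other 8 genes overlap.

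*Cd3e* encodes the epsilon chain of CD3, which every TCR complex needs to reach the surface. Its gene lies on the minus strand of chromosome 9, from 44998740 to 45009627 (GRCm38). Its normalized counts were 49.8, 50.9 and 48.5 with the deletion (*Nedd4l* fl/fl Villin Cre) and 61.2, 63.9 and 80.9 in *Nedd4l* fl/fl littermates. It was the only member whose libraries did not overlap, with all 3 *Nedd4l* fl/fl Villin Cre values below the lowest littermate value. Of all tested genes, 10.9% were separated in this direction and 10.5% in the other. Averaged, this was 49.7 ± 1.19 (SD, n = 3) against 68.7 ± 10.7 (SD, n = 3), and the log2 fold change was −0.45 (SE 0.22, 95% confidence interval −0.94 to 0.05, limma adjusted p = 0.391). The interval reached past 0, so the difference did not pass the test. An antisense gene, Gm48719, and a further gene, Gm48720, overlap *Cd3e*; they held at most 6 and 1 reads in any library.

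No other chain of the receptor was separated on the lower side. *Cd3d* (delta chain) stood at 78.6, 45.3 and 54.7 against 44.4, 45.9 and 59.9 normalized counts, with a log2 fold change of 0.22 (SE 0.28). *Cd3g* (gamma chain) had a log2 fold change of 0.06 (SE 0.27), and both genes overlapped between the genotypes. *Cd247*, the zeta chain with most of the signaling motifs, was at 57.5, 37.6 and 51.6 against 20.7, 23.4 and 33.0. Its values were separated in the direction opposite to *Cd3e* (log2 fold change 0.91, SE 0.30, unadjusted p = 0.016, limma adjusted p = 0.289) and did not pass the test. The constant regions of the receptor chains, *Trac*, *Trbc1* and *Trbc2*, had log2 fold changes of 0.05 (SE 0.21), 0.06 (SE 0.24) and −0.0024 (SE 0.23). *Lck*, the kinase bound to the coreceptors, had one of −0.18 (SE 0.19).

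The list of TCR complex and proximal signaling genes had 26 genes, all tested, and under the deletion 18 of these stood higher and 8 lower (median log2 fold change 0.11). None was called by limma, edgeR or DESeq2, and at an unadjusted limma p under 0.05 the only genes were *Cd247* and *Thy1*, both higher. They make 7.69% of the 26, near the 6.91% of all tested genes that were higher at this level. *Thy1*, a surface glycoprotein of T cells and of some stromal cells, stood at 385, 235 and 254 against 194, 197 and 211 normalized counts. The most abundant genes were the pan-leukocyte phosphatase *Ptprc*, at 2506, 1552 and 1605 against 1320, 1462 and 1861, and the kinase *Fyn* (log2 fold change 0.25, SE 0.19); both overlapped. Without replicate 1 of *Nedd4l* fl/fl Villin Cre mice the list was split 13 to 13, with a median of −0.0033.

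**Figure D2:**
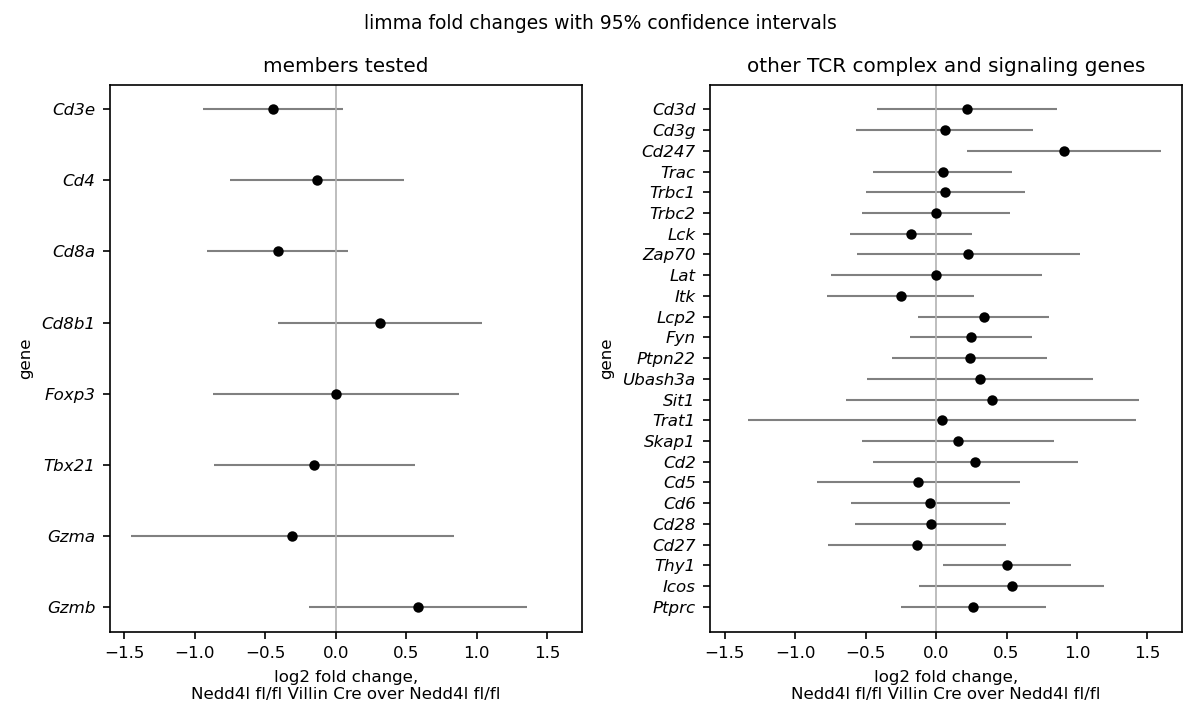
Log2 fold change, *Nedd4l* fl/fl Villin Cre over *Nedd4l* fl/fl, with its 95% confidence interval from limma (3 mice per genotype), for the 8 members tested (left) and the other genes of the TCR list (right). Each member's interval crosses 0, from *Cd3e* at −0.45 to *Gzmb* at 0.58, and on the right only *Cd247* and *Thy1* lie clear of 0 before adjustment.

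Among the coreceptors, *Cd4* marks helper and regulatory T cells and is also present on some macrophages and lymphoid tissue inducer cells. It is on chromosome 6, minus strand, from 124864692 to 124888221. It was measured at 173, 242 and 139 normalized counts against 235, 142 and 231. Each genotype held high and low libraries, with replicate 2 the highest of one and the lowest of the other. The log2 fold change was −0.13 (SE 0.27, interval −0.75 to 0.49, limma adjusted p = 0.845).

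*Cd8a* encodes the alpha chain of CD8, found in both forms of the dimer, and *Cd8b1* the beta chain, found in the heterodimer alone. The pair are neighbours on the plus strand of chromosome 6, with *Cd8b1* from 71322788 to 71337494 and *Cd8a* from 71373427 to 71379173, which leaves 35932 bases between them. *Cd8a* stood at 110, 87.3 and 129 normalized counts against 171, 120 and 144. The highest *Nedd4l* fl/fl Villin Cre library lay above the lowest littermate, so the genotypes overlapped (log2 fold change −0.41, SE 0.22, interval −0.91 to 0.09, limma adjusted p = 0.422). *Cd8b1* stood at 22.0, 18.8 and 28.9 against 18.8, 15.3 and 21.0. Its point estimate lay on the other side of 0, at 0.32 (SE 0.31, interval −0.41 to 1.04, limma adjusted p = 0.662), again with overlapping libraries.

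The ratio of *Cd8a* to *Cd8b1*, taken within a library, does not depend on the size factor. *Nedd4l* fl/fl Villin Cre mice had ratios of 5.00, 4.65 and 4.46, and littermates of 9.11, 7.82 and 6.86. All 3 *Nedd4l* fl/fl Villin Cre ratios lay below the lowest littermate ratio, with means of 4.70 ± 0.27 (SD, n = 3) and 7.93 ± 1.13 (SD, n = 3). The denominator rests on few reads, with at most 28.9 normalized counts of *Cd8b1* in a library. Of the 50-base windows of *Cd8b1* transcripts, 6.28% also occur in annotated transcripts of other genes. How many reads are shared is not known. The ratio of *Cd8a* to *Cd4* overlapped, at 0.635, 0.361 and 0.926 against 0.727, 0.842 and 0.623, with its lowest and its highest value in the same genotype. Of the 5 ratios computed, 3 did not overlap between the genotypes, and none was tested. Some of the ratios share a gene, so they are not independent. Of single tested genes, 10.5% were separated on the higher side and 10.9% on the lower. No such share was computed for ratios, so the count is a description only.

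**Figure D3:**
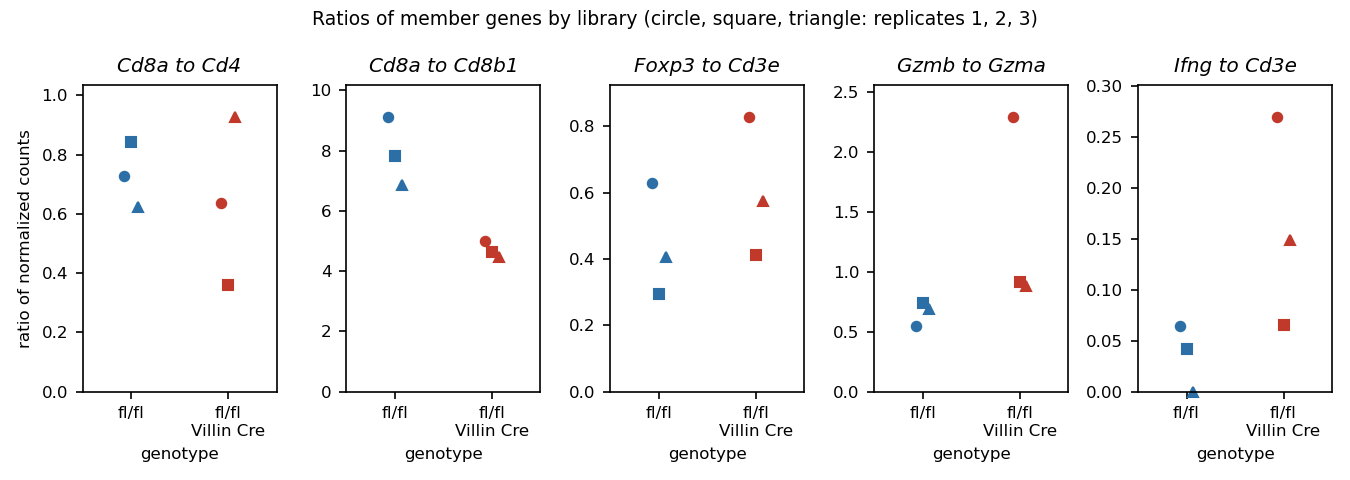
Ratios of normalized counts of member genes (linear axes from 0) in each library of *Nedd4l* fl/fl (blue) and *Nedd4l* fl/fl Villin Cre mice (red), 1 symbol per replicate. *Cd8a* to *Cd8b1* is at 4.46 to 5.00 in red and 6.86 to 9.11 in blue, and *Gzmb* to *Gzma* is higher in red. *Ifng* to *Cd3e* is higher in red by a narrow margin (lowest red 0.0652, highest blue 0.0645) and rests on few *Ifng* reads. The other pair of ratios overlaps.

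Of the lineage factors, *Foxp3* drives the regulatory T cell program. It is on the plus strand of chromosome X, listed from 7579676 to 7595243. It was measured at 41.2, 21.0 and 27.9 normalized counts against 38.5, 18.9 and 33.0, and the libraries of the genotypes interleaved. On average it stood at 30.0 ± 10.3 and 30.1 ± 10.1 (SD, n = 3 each), and the log2 fold change was 0.0021 (SE 0.38, limma adjusted p = 0.999). The interval of −0.87 to 0.88 does not exclude a sizeable difference in either direction. Other genes, among them the overlapping Gm36995 and *Flicr*, share 23.1% of its windows of 50 bases in annotated transcripts, so its reads can be split between genes; Gm36995 and *Flicr* held at most 6 and 3 reads in a library, and the protein-coding *Ppp1r3f*, which shares part of these windows, held 4 to 22. A further protein-coding gene there was not analysed here, so how many reads are shared is not known. The ratio of *Foxp3* to *Cd3e* was 0.827, 0.413 and 0.574 against 0.629, 0.296 and 0.407, and overlapped.

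*Tbx21* encodes T-bet, the factor of type 1 helper cells and of NK cells. It is on the minus strand of chromosome 11, from 97098071 to 97115331. It stood at 23.0, 18.8 and 17.5 normalized counts against 17.8, 27.0 and 22.0, and the lowest libraries of both genotypes lay side by side. The log2 fold change was −0.15 (SE 0.31, interval −0.86 to 0.56, limma adjusted p = 0.845).

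The list of coreceptors and lineage factors had 20 genes, 19 of them tested, with 11 higher, 8 lower and a median of 0.06. None was called by limma or edgeR. DESeq2 called 1, a gene on the lower side that is neither of those named next. *Runx3*, needed for the killer lineage, was at 223, 201 and 216 against 155, 147 and 193, without overlap (log2 fold change 0.38, SE 0.16, limma adjusted p = 0.343). *Zbtb7b*, needed for the helper lineage but present here at 3593 to 5016 normalized counts, had a log2 fold change of −0.012 (SE 0.12).

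The regulatory T list holds *Foxp3* and 18 further genes. A positive difference was found for 15 of the 16 tested and a negative one for 1 (median log2 fold change 0.63), and limma, edgeR and DESeq2 called 0 genes. *Ctla4*, an inhibitory receptor, was at 146, 55.3 and 100.1 normalized counts against 48.4, 45.0 and 45.9 (log2 fold change 0.99, SE 0.34, unadjusted p = 0.020, limma adjusted p = 0.306), the only one at an unadjusted p under 0.05. It makes 6.25% of the 16, near the 6.91% of all tested genes that were higher at this level. *Il2ra*, the high-affinity interleukin 2 receptor chain, had a log2 fold change of 0.99 (SE 0.44), and *Lrrc32*, which anchors latent TGF-beta on regulatory T cells and on stromal cells, one of 0.74 (SE 0.32). The most abundant genes were *Il1rl1*, the interleukin 33 receptor (0.73, SE 0.75), and *Nrp1* (0.28, SE 0.15). *Foxp3* did not share the list's median. Replicate 1 of *Nedd4l* fl/fl Villin Cre mice was the highest library for *Ctla4*, *Il2ra* and *Il1rl1*, and without it the list's median was 0.34.

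*Gzma* and *Gzmb* encode the granule proteases granzyme A, a tryptase, and granzyme B, which cleaves after aspartate and activates caspases. *Gzma* is on chromosome 13 (113093825 to 113100981, minus strand) and *Gzmb* on chromosome 14 (56258838 to 56262260, minus strand). *Gzma* was measured at 66.1, 91.8 and 181 normalized counts against 220, 81.0 and 117. Its spread within a genotype was wide, with SDs of 60.0 and 72.3 around means of 113 and 139 (n = 3 each), and the genotypes overlapped. The log2 fold change was −0.31 (SE 0.48, interval −1.45 to 0.84, limma adjusted p = 0.794).

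*Gzmb* was measured at 151, 84.0 and 159 normalized counts against 121, 60.3 and 80.9. Replicates 1 and 3 of *Nedd4l* fl/fl Villin Cre mice were the highest of the 6, and replicate 2 lay within the range of the littermates. The log2 fold change was 0.58 (SE 0.33, interval −0.19 to 1.36, limma adjusted p = 0.453), the highest point estimate among the members tested. Without replicate 2 of *Nedd4l* fl/fl Villin Cre mice it was 0.88 (unadjusted p = 0.022, limma adjusted p = 0.204), which also missed the threshold. In that fit 8.93% of all genes were higher at an unadjusted p under 0.05. That value was the highest of the fits with a library left out, which gave *Gzmb* log2 fold changes of 0.35 to 0.88. The ratio of *Gzmb* to *Gzma* was 2.29, 0.916 and 0.880 against 0.552, 0.744 and 0.692. All 3 *Nedd4l* fl/fl Villin Cre ratios were above the highest littermate ratio, and most of the difference in means lay in replicate 1.

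Of the cytotoxic granule and NK receptor list, 15 of 25 genes were tested, with 12 positive and 3 negative differences and a median of 0.34. None was called by limma or edgeR, while DESeq2 called *Srgn*. *Prf1*, the pore-forming perforin, stood at 26.8, 27.6 and 17.5 normalized counts against 30.6, 9.0 and 13.98 (log2 fold change 0.55, SE 0.47). *Nkg7*, a granule membrane protein, had a log2 fold change of 0.20 (SE 0.24), and *Klrd1*, the CD94 receptor, one of −0.60 (SE 0.35). These 3 were named after their values were seen. *Srgn*, the proteoglycan that packs granzymes but also the granules of myeloid and mast cells, was at 1075, 528 and 525 against 397, 288 and 423 (log2 fold change 0.87, SE 0.31, unadjusted p = 0.030, limma adjusted p = 0.322). *Serpinb9*, an inhibitor of granzyme B, did not overlap, at 275, 150 and 174 against 144, 145 and 135. The protease *Ctsc*, which activates granzymes, and the death ligand *Tnfsf10* were the most abundant, with log2 fold changes of 0.33 (SE 0.15) and 0.46 (SE 0.26).

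*Ifng* encodes interferon gamma and is on the plus strand of chromosome 10, from 118441046 to 118445892. *Nedd4l* fl/fl Villin Cre mice had 14, 3 and 7 reads of it and littermates 4, 3 and 0, which is 13.4, 3.32 and 7.22 against 3.95, 2.70 and 0 normalized counts. The lowest *Nedd4l* fl/fl Villin Cre library lay below the highest littermate, so the genotypes overlapped. A count of 0 allows up to 3 reads. Summed over the mice the reads were 24 (exact Poisson 95% interval 15.4 to 35.7) and 7 (2.81 to 14.4), where the intervals cover counting error only and not the spread between mice. With no filter on low values limma gave a log2 fold change of 1.60 (unadjusted p = 0.044, adjusted p = 0.472) and edgeR one of 1.80 (unadjusted p = 0.066, adjusted p = 0.513), and neither passed the threshold. A further gene, Gm49751, shares 19.9% of the 50-base windows of *Ifng*. The ratio of *Ifng* to *Cd3e* was 0.269, 0.0652 and 0.149 against 0.0645, 0.0423 and 0, a narrow separation.

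Most other T cell cytokines were as scarce. Of the list of 20, 7 genes were tested, with 6 higher, 1 lower, a median of 0.55 and none at an unadjusted limma p under 0.05 or called by edgeR or DESeq2. *Tnf* stood at 317, 79.6 and 132 normalized counts against 101, 90.9 and 115, and *Ltb*, the membrane-bound lymphotoxin subunit, at 429, 203 and 156 against 124, 247 and 228. *Ccl5*, a chemokine of memory killer cells, was the one lower gene, at 61.3, 78.5 and 135 against 199, 103 and 157 (log2 fold change −0.76, SE 0.35, limma adjusted p = 0.370). *Il22* and *Il10* had log2 fold changes of 1.94 (SE 1.25) and 0.84 (SE 0.58). *Il22* was at 61.9 in 1 library and at 0 in another.

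Most tested genes of the type 1 induction list had positive differences, of which none passed the limma test. The list holds receptor chains and an inhibitor beside inducing cytokines. In the type 1 induction list these were 12 of 13 tested, and 1 was negative (median 0.42). Limma and edgeR called 0 and DESeq2 called 1, *Il18bp*. An unadjusted limma p under 0.05 was reached by 3 (23.1% of 13, all higher), beside 6.91% of all genes. When each library was left out the count was 2 to 6. It was 6 without replicate 2 of *Nedd4l* fl/fl Villin Cre mice, where 8.93% of all genes were higher at this level. With all libraries the 3 were *Il15ra*, which presents interleukin 15 to killer and NK cells (0.47, SE 0.15), *Il2rb*, its signaling chain (0.42, SE 0.16), and *Il18bp*, a soluble inhibitor of interleukin 18 that interferon gamma induces (1.00, SE 0.31). *Il18* and *Tyk2*, the most abundant, had log2 fold changes of 0.09 (SE 0.20) and 0.15 (SE 0.10). The summed level of the list was 3984 to 4179 normalized counts against 3121 to 3678, without overlap. The cytokine genes *Il12a*, *Il12b* and *Il27* and the interleukin 12 receptor gene *Il12rb2* were below the filter, so they were not tested.

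Receptor and target genes of interferon gamma were, unlike *Ifng*, well measured. All 30 were tested, and *Nedd4l* fl/fl Villin Cre mice had 28 of them higher and 2 lower (median log2 fold change 0.63). None was called by limma or edgeR, while DESeq2 called 8, beside 424 of 16246 genes. At an unadjusted limma p under 0.05 there were 14 (46.7%), all higher, where 6.91% of all genes were. *Psmb9*, an immunoproteasome subunit, was at 1836, 1405 and 1873 normalized counts against 1078, 1170 and 1252 (log2 fold change 0.54, SE 0.13, limma adjusted p = 0.211). *Gbp3*, a guanylate-binding protein, was at 966, 430 and 662 against 317, 313 and 340 (1.01, SE 0.27), and the receptor chain *Ifngr2* had a log2 fold change of 0.29 (SE 0.083), both without overlap. The largest difference of the list, named after its values were seen, was that of *Ido1*, the enzyme that starts tryptophan breakdown, at 3551, 31.0 and 1310.0 normalized counts against 11.9, 15.3 and 17.97 (5.06, SE 1.74, limma adjusted p = 0.316). Its replicate 2 lay near the littermates and the other two far above. The genes on the lower side were the class II chains *H2-Aa* (−0.51, SE 0.28) and *H2-Ab1* (−0.24, SE 0.24), which interferon gamma also induces. Type I interferons induce many genes of the list too. The count higher at an unadjusted p under 0.05 was 10 without replicate 1, 26 without replicate 2 and 6 without replicate 3 of *Nedd4l* fl/fl Villin Cre. Of all genes, 5.31%, 8.93% and 4.92% were higher at this level in those fits. Without replicate 2, limma called 6 of the list, beside 70 of 16246 genes called higher. Leaving out the littermates in turn gave 5, 9 and 7, beside 5.96%, 4.88% and 5.05% of all genes. In each of these fits 28 genes of the list were higher.

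**Figure D4:**
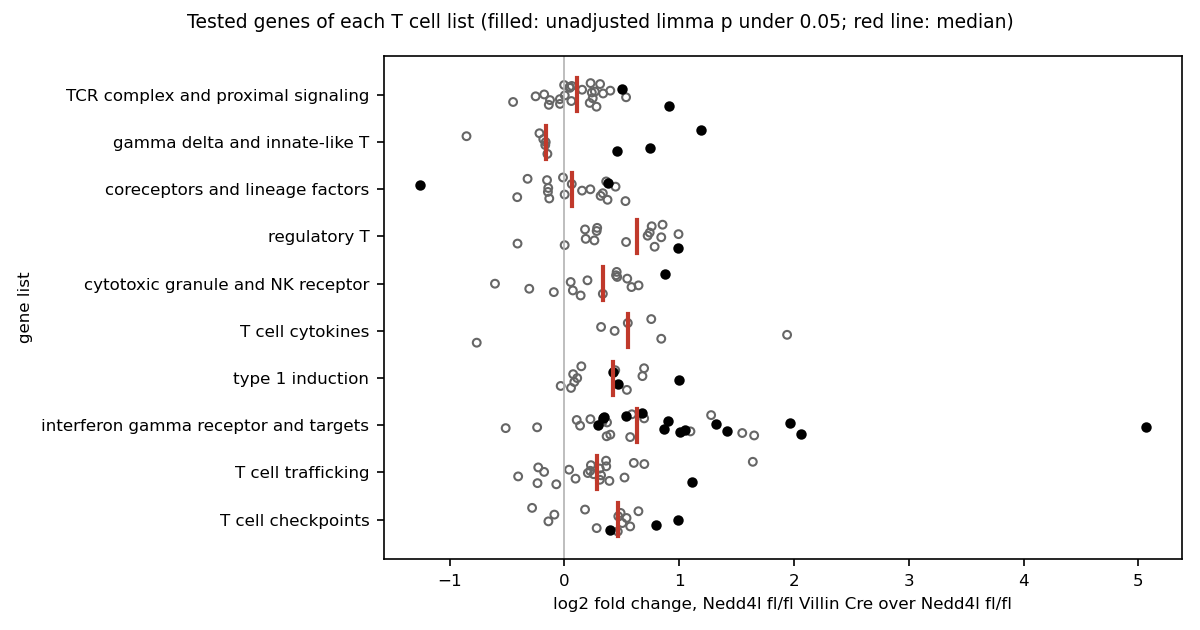
Log2 fold change, *Nedd4l* fl/fl Villin Cre over *Nedd4l* fl/fl, of each tested gene in the 10 T cell lists (points, filled at an unadjusted limma p under 0.05), with the list's median as a red line. The TCR list and the coreceptor list have medians of 0.11 and 0.06, and the interferon gamma list has a median of 0.63 with 14 of 30 genes filled.

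The remaining lists were of trafficking, checkpoint and innate-like T cell genes. Of 22 trafficking genes, 17 were higher and 5 lower (median 0.28), and *Ccr2*, a receptor of monocytes and activated T cells, was at 374, 261 and 496 normalized counts against 221, 120 and 180 (log2 fold change 1.11, SE 0.30, limma adjusted p = 0.248); it was the only gene of the list that DESeq2 called. The gut homing integrin *Itgb7* did not overlap (0.23, SE 0.12). *Cd44* and the epithelial chemokine *Ccl28*, the most abundant, had log2 fold changes of 0.32 (SE 0.18) and −0.23 (SE 0.18). Of 15 checkpoint genes, 12 were higher and 3 lower (median 0.47), among them *Cd80*, a ligand of CTLA4 on antigen-presenting cells (0.79, SE 0.28), and the ligands *Cd200* (0.40, SE 0.17) and *Cd274*, which encodes PD-L1 (0.57, SE 0.44), and the ectonucleotidase *Entpd1* (0.54, SE 0.35). Of 9 gamma delta and innate-like genes tested, 3 were higher and 6 lower (median −0.16). Those higher did not overlap: *Mr1* and *Cd1d1*, which present antigen to innate-like T cells on many cell types (0.75, SE 0.22 and 0.46, SE 0.18), and *Zbtb16*, which encodes their factor PLZF (1.19, SE 0.44). Of all tested genes, 10.5% were separated on the higher side, and none of these 9 was called by limma, edgeR or DESeq2. *Sox13* overlapped (−0.17, SE 0.22).

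Taking each gene of the 10 lists once, 166 of 201 could be tested. Among them 128 stood higher and 38 lower (median 0.32), and limma and edgeR called 0 while DESeq2 called 12, 11 of them higher. DESeq2 called 424 of all 16246 genes, 253 of them higher. At an unadjusted limma p under 0.05, 28 (16.9%) were higher and 1 was lower, beside 6.91% and 7.08% of all genes. The interferon gamma receptor and target list held 14 of the 28. In the TCR, coreceptor, regulatory T, cytotoxic and trafficking lists, 4.55% to 7.69% of tested genes were higher at this level. The share was 23.1%, 20% and 33.3% in the type 1 induction, checkpoint and innate-like lists, and 0% in the cytokine list. Genes of a list are not independent, and no test was made of the excess. The 28 became 16 without replicate 1, 55 without replicate 2 and 14 without replicate 3 of *Nedd4l* fl/fl Villin Cre, and 15 without replicate 2 of the littermates. Where replicate 1 of *Nedd4l* fl/fl Villin Cre mice was left out, the share of all genes was 5.31% higher and that of the lists 9.64%. The same shares were 8.93% and 33.1% without replicate 2, and 4.92% and 8.43% without replicate 3, of that genotype. Without replicate 2 of the littermates they were 4.88% and 9.04%.

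Levels were also divided by the listed gene length. That length can differ from the length of the transcript expressed, so the order of genes is rough. The mean over the 6 libraries was 125 ± 60.8 normalized counts per kilobase (SD, n = 6) for *Gzma*. It was 76.2 ± 28.3 for *Gzmb* and 48.1 ± 11.9 for *Cd4*. It was 34.9 ± 7.89 for *Cd8a*, 14.5 ± 3.04 for *Cd3e* and 14.02 ± 3.10 for *Cd8b1*. The scarcest were *Tbx21* at 8.45 ± 1.48, *Foxp3* at 7.54 ± 2.29 and *Ifng* at 3.94 ± 3.62. Neighbours in this order overlapped in their ranges over the libraries, except *Cd8a* and *Cd3e*: *Cd8a* was the higher in 6 of 6 libraries, at 24.0 to 47.0 against 11.9 to 19.8. *Cd3e* and *Cd8b1* were not ordered, with *Cd3e* the higher in 3 of 6. *Gzma* exceeded *Gzmb* in 5 of 6 libraries, with replicate 1 of *Nedd4l* fl/fl Villin Cre mice the exception. On the same scale the other CD3 chains differed widely, with *Cd3d* at 30.2, *Cd3g* at 27.9 and *Cd247* at 7.00.

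Cells other than T cells carry some of these genes. The defining NK and ILC1 genes were near the floor: 5 of 9 are listed, 0 passed the filter, and their summed level was 15.5 to 16.5 normalized counts with the deletion and 13.5 to 15.98 in littermates. Of the ILC2 and ILC3 list, 4 of 6 tested genes were higher and 2 lower, and the sums were 1828 to 2732 against 2648 to 3007. *Il17rb* was higher without overlap, and 2 genes, *Kit* among them, were lower without overlap. Beside these, 10.5% of all tested genes were separated on the higher side and 10.9% on the lower. Dendritic cell genes (8 tested, 2 higher) had sums of 511 to 641 against 533 to 640. Macrophage and monocyte genes (12 tested, 11 higher) summed to 11807 to 14056 against 7550 to 11893, and *Ly6c2*, of inflammatory monocytes and also of some T cells, had a log2 fold change of 1.63 (SE 0.27, limma adjusted p = 0.137).

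Replicate 1 of *Nedd4l* fl/fl Villin Cre mice, the library with the most *Ifng*, also had the highest sums of the B cell, lymphoid stroma and neutrophil lists. B cell genes (10 of 10 higher) summed to 6231 there, to 2367 and 3110 in the other *Nedd4l* fl/fl Villin Cre mice, and to 1694 to 4379 in littermates. Lymphoid stroma genes (4 of 4 higher) summed to 2918 there and to 570 to 970 elsewhere. Neutrophil genes (7 of 8 higher, median log2 fold change 3.53) summed to 9987 there and to 2975 to 3274 elsewhere, sums to which *Ly6g* alone gave 2200.2 to 3136 in each library. Of the 8, 3 were higher without overlap, beside 10.5% of all tested genes. DESeq2 called 3 of the 8, beside 424 of 16246 genes, and limma and edgeR called 0. At an unadjusted limma p under 0.05, 3 were higher and 1 was lower, beside 6.91% and 7.08% of all genes. *Mmp8*, a collagenase of neutrophil granules, was at 406, 6.63 and 36.1 against 2.96, 0.900 and 0 normalized counts, so that replicates 2 and 3 also lay above the littermates. Plasma cell genes (4 of 7 higher) summed to 40406 to 52864 against 31657 to 53133. Of the mast cell list 4 of 6 were higher and 2 lower, with sums of 482 to 1771 against 824 to 909. The proteases *Mcpt1*, *Mcpt2* and *Mcpt4* were higher without overlap, and *Kit* was lower without overlap. Of all tested genes, 10.5% were separated on the higher side and 10.9% on the lower. Limma and edgeR called none of the 6, and DESeq2 called 2. Epithelial genes (2 of 12 higher) summed to 230243 to 286714 against 264034 to 291472, and smooth muscle genes (0 of 8 higher) to 6203 to 11874 against 5742 to 22496. The part of these cells in the levels of the 9 genes was not tested.

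The genes whose pattern over the 6 libraries was most like that of a member were found by Pearson's correlation of log2(normalized count + 1) over the tested protein-coding genes, as a description. For *Cd3e* they were *Cdk2* (r = 0.988), *Polr2e*, *Il22ra2*, *Gas2* and *Rfc2*. For *Gzma* they were *Plk1* (r = 0.993), *Polr3b*, *Ankrd22*, *Cog7* and *Tbl1x*. For *Gzmb* they were *Rom1* (r = 0.991), *Mefv*, *Rnf125*, *Pqlc3* and *Adssl1*. For *Ifng* they were *Fam126b* (r = 0.998), *Dst*, *S100a14*, *Arap2* and *Crcp*. None of the 20 is in a T cell list, and with 6 libraries between 10 and 51 genes reached an r of 0.95 with each member.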

How the data were processed

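RNA from colonic tissue of 6 mice was sequenced, and 1 table with a column per library was used. Its values are normalized counts as deposited by the authors: the signal of a gene is its number of reads over the size factor of the library. The table also holds the authors' genotype means, fold changes and p-values, which were not used. Per the labels' processing notes HISAT2 2.0.5 and featureCounts 1.5.0-p3 were used; whether counting used strand or how it treated shared reads is not given in the sources used here. The notes list the build hg18, a human build, but 97.2% of listed genes have the GRCm38 coordinates of GENCODE release M21, which is the build named with coordinates.

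Every value was a whole multiple of its library's step (100% of values within 0.02), so whole reads could be recovered. The main test was limma 3.58.1 (R 4.3.3) on log2(normalized count + 1) over genes with a mean of at least 10, with trend and robust settings and Benjamini-Hochberg adjustment at 0.05. Alternatives were pseudocounts of 0.5 and 5, no filter, quantile normalization, a replicate block, array weights, edgeR 4.0.16 and DESeq2 1.42.0 on recovered reads, and leaving out each library. The code of the tests was also run on simulated data with 200 changed genes. Counts there were drawn independently and no library was made an outlier, so the rate of false calls in these data was not measured. Whether the mice of a genotype came from separate cages or litters is not stated, so the p-values measure the spread between these libraries.

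The 9 members, the 10 T cell lists and the 11 marker lists rest on general knowledge and were chosen with earlier results of these data known. Named in each list were the 3 genes with the smallest limma p and the 2 most abundant; other genes named, such as receptor chains, were chosen after their values were seen. Gene lists are described by counts and medians, with no set test. *Ccl21a*, which has several rows, was left out. Some genes that this rule names are not reported here.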

Additional observations from a re-analysis of the deposited data

How the results depend on the processing

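No member was called under any of the 15 alternatives. *Ifng* was fitted only with no filter, by limma and by edgeR, so the other alternatives could not call it. At an unadjusted p under 0.05 the count of members, 0 in the main result, was 1 with no filter (*Ifng*), 1 with quantile normalization, 1 with a replicate block, 2 with array weights and 0 to 1 when libraries were left out. Of all genes, 30 were called with no filter, 631 with array weights, 424 by DESeq2 and 7 by edgeR with no filter, an alternative chosen after seeing the data, and 0 to 122 when libraries were left out (24 without replicate 1 and 122 without replicate 2 of *Nedd4l* fl/fl Villin Cre mice). The count of T cell list genes higher at an unadjusted p under 0.05, 28, was 14 to 55 when libraries were left out, also chosen after seeing the data. In those fits 4.88% to 8.93% of all genes were higher at this level. *Cd3e*, *Cd8a*, *Cd8b1*, *Gzmb* and *Tbx21* kept their direction under all 15. The log2 fold change of *Foxp3*, 0.0021, was −0.068 with quantile normalization, −0.099 with array weights and −0.29 to 0.22 with a library left out. That of *Gzma*, −0.31, was 0.27 with array weights and −0.71 to 0.084 with a library left out. That of *Cd4*, −0.13, was −0.44 with array weights and −0.37 to 0.053 with a library left out. The cause was not tested.

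Replicate numbers are not stated to pair mice, and the deviations of same-numbered libraries correlated at −0.029, −0.090 and −0.056, so the replicate block shares a number only; it called 0 members. At 3 mice per genotype the limma intervals of the members spanned about 1 log2 unit or more, and *Ifng* rests on 0 to 14 reads per library.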
